A study of Mus musculus with 12 samples.

Results

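Actomyosin is the contractile machinery of the cell, in which myosin motors pull on actin filaments. The genes described here encode muscle actins, proteins that bind along the filament, tropomyosins, the cross-linkers and anchors of the filament, PDZ-LIM adaptors, and the heavy and light chains of conventional and unconventional myosins. They were chosen by gene symbol in the platform's probe annotation: every symbol in which Myh, Myl, Myo, Tpm, Cnn, Actn or Pdlim is followed by a number, and 12 single genes such as Acta2, Tagln, Vcl and Cald1. The annotation held 71 such genes on 157 probes. Of these, 50 genes on 88 probes were detected on at least 4 of the 12 arrays and were tested, among 11018 tested genes in all. Where a gene had several tested probes, the one with the highest mean over the arrays stands for it, and no measured difference entered the choice. The members were, however, proposed with earlier results of these data known, so counts over them are descriptions without a test of the list. Of the 21 members left out, 12 were detected on no array and 9 on 1 to 3 arrays, and the counts below cover the 50 tested genes only.

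RNA came from primary cardiac fibroblasts of female C57/BL6 mice aged 10 to 16 weeks, grown in medium with 10% fetal calf serum on uncoated plastic wells. The CCN2 group (arrays 5 to 8) had been given 200 nmol/L CCN2 for 48 h, the GDF15 group (arrays 9 to 12) 500 nmol/L GDF15 for 48 h, and the control group (arrays 1 to 4) neither protein. The labels of the control arrays give no time. CCN2 (connective tissue growth factor) acts in the matrix around cells, and GDF15 is a distant, secreted relative of TGF-beta. Whether the arrays within a group hold RNA of separate cultures or animals is not stated, so the spread behind the p-values may be technical. Fibroblasts on stiff plastic in serum are known to take on features of myofibroblasts, which limits untreated wells as a model of resting cells.

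In fibroblasts, force is made mainly by non-muscle myosin II, a hexamer of heavy chains, regulatory light chains and essential light chains. Phosphorylation of the regulatory light chain by myosin light chain kinase switches the motor on, and myosin phosphatase switches it off. The smooth muscle actin encoded by Acta2 is the textbook mark of the myofibroblast, the contractile fibroblast of healing and scarring tissue. Many genes of this machinery carry CArG boxes, the sites bound by serum response factor, whose co-activators MRTF-A and MRTF-B are held back by free actin monomers.

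The promoter sequences around such boxes are shown for 8 members that were lower after CCN2, so that the letters can be read beside the values. They come from RefSeq on GRCm38.p6 and run 5′ to 3′ on the gene's strand, with the boxes in capitals and up to 25 bases of flank. The strict form of the box has only A or T in its 6 middle letters. The boxes of Acta2 and Pdlim3, the second of Myl9 and 3 of the 4 in Actc1 carry 1 G or C there, and the others are strict.
Acta2, chr19:34255374-34255482, minus strand: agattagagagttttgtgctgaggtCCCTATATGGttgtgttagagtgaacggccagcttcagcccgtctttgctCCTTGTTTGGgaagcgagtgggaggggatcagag
Actc1, chr2:114052888-114053075, minus strand: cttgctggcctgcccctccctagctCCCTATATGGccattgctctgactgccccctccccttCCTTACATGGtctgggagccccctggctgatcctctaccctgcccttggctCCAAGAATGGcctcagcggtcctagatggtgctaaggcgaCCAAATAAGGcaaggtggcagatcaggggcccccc
Myl9, chr2:156775278-156775399, plus strand: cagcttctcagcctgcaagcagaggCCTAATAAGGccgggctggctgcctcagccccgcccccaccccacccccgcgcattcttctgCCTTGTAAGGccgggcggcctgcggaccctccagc
Myl6, chr10:128493025-128493084, minus strand: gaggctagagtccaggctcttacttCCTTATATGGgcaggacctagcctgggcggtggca
Cnn2, chr10:79988519-79988578, plus strand: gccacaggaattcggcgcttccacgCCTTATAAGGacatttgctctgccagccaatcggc
Vcl, chr14:20929148-20929205, plus strand: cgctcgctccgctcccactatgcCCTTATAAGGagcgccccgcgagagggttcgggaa
Myo1e, chr9:70207293-70207349, plus strand: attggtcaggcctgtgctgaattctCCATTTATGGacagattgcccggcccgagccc
Pdlim3, chr8:45885362-45885421, plus strand: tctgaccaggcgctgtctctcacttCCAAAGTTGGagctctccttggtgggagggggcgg
The first capital stood 84 and 34 bases before the start site in Acta2, 161 and 99 bases before it in Myl9, 227 in Vcl and 100 in Pdlim3. In Actc1, the cardiac actin gene, 4 boxes began between 175 and 47 bases before the start. Windows of 300 bases, from 250 before to 50 after the start, were available for 44 of the 50 members, and those of Actg2, Actn3, Myh11, Myo1d, Pdlim2 and Tagln were not analysed here. Because the strict CArG box reads alike on both strands, one search covered both. A strict box stood in 15.9% of these 44 members, against 1.81% of all 27025 genes with a window. Among members lower after CCN2 it stood in 6 of 30, and among the other members in 1 of 14, namely Myl3. With at most 1 G or C in the middle, the shares were 29.5% of members and 11.3% of all genes. Within the members this form stood in 10 of 30 and 3 of 14, the 3 being Myl3, Pdlim4 and Tpm3. Some genes have several windows. Counted by window, this form stood in 10 of 38 (26.3%) for members lower after CCN2 and in 4 of 16 (25%) for the others, so these shares hardly differ. A match describes letters in a window and is neither a tested site nor a cause.

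Across the series, the number of detected probes was 18009 to 18979 on the CCN2 arrays, 19004 to 19481 on the GDF15 arrays and 19211 to 19691 on the control arrays. Between arrays, log2 values of the tested probes correlated at 0.9869 to 0.9956 within groups and 0.9234 to 0.9834 between groups. All 13 fibroblast markers were detected, with a summed signal of 42087 to 44911 on the CCN2 arrays, 50337 to 60120 on the GDF15 arrays and 55731 to 59596 on the control arrays. After CCN2 8 of them fell and none rose, and after GDF15 4 fell. Markers of other cells were detected as well. The summed signal of 11 macrophage markers was 14535 to 15807 on the CCN2 arrays, 32502 to 34956 on the GDF15 arrays and 39169 to 41659 on the control arrays. That of 11 pericyte and smooth muscle markers was 582 to 662 on the CCN2 arrays, 1116 to 1330 on the GDF15 arrays and 1583 to 1724 on the control arrays, with 10 of 11 lower after CCN2 and 5 of 11 lower after GDF15. Among all tested genes, 30.2% were called lower after CCN2 and 12.7% after GDF15. Of 16 cardiomyocyte markers 6 passed the detection filter, and Tnni3, Ryr2, Pln, Ttn and Mybpc3 were among those that did not. These are bulk samples, in which fewer cells of a type and less RNA per cell cannot be told apart.

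After CCN2 most of the contractile genes were lower. Of the 50 members, 35 fell and 3 rose, while 12 passed no threshold (limma, Benjamini-Hochberg adjusted p under 0.05 over all tested probes). The 35 include Cald1 by its brightest probe, although its other probes lay above control. Of all 11018 genes, 30.2% fell and 25.7% rose, against 70% and 6% of the members. At least 2-fold decreases were seen in 13 members (26%) and in 7.91% of all genes. The median log2 difference of the members was -0.61, with -0.02 for all genes. In 32 members every CCN2 array lay below every control array, and in 3 every CCN2 array lay above, against 29.5% and 24.5% of all genes. Under median scaling instead of quantile normalization, which puts the median of all genes at -0.211, a shift of -0.187, 40 members fell and 2 rose, against 43.1% and 14.8% of all genes. Of the 35 decreases, 32 held under each of the 21 alternatives run, the exceptions being Actn2, Cald1 and Myo9a.

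After GDF15 most members passed no threshold. Of the 50, 6 rose, 8 fell and 36 passed no threshold, against 9.76% and 12.7% of all genes higher and lower. The 6 include Cald1, for which no direction is drawn below. The members' median log2 difference was -0.06 and that of all genes -0.02, and no member changed by 2-fold. A share of 12% higher and 16% lower among the members thus lies near that of all genes. Tagln and Tagln2 among the increases and Myh11 and Myh1 among the decreases held under all 21 alternatives, the other 10 calls not. Myh1 was detected on 1 GDF15 array and no CCN2 array, and so passed the detection filter through the control arrays. With median scaling 3 members (6% of 50) rose and 8 (16%) fell, near the 6.7% and 14% of all genes. Both treatments were set against the same 4 control arrays, so their values are given side by side and their likeness is not counted.

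**Figure D1:**
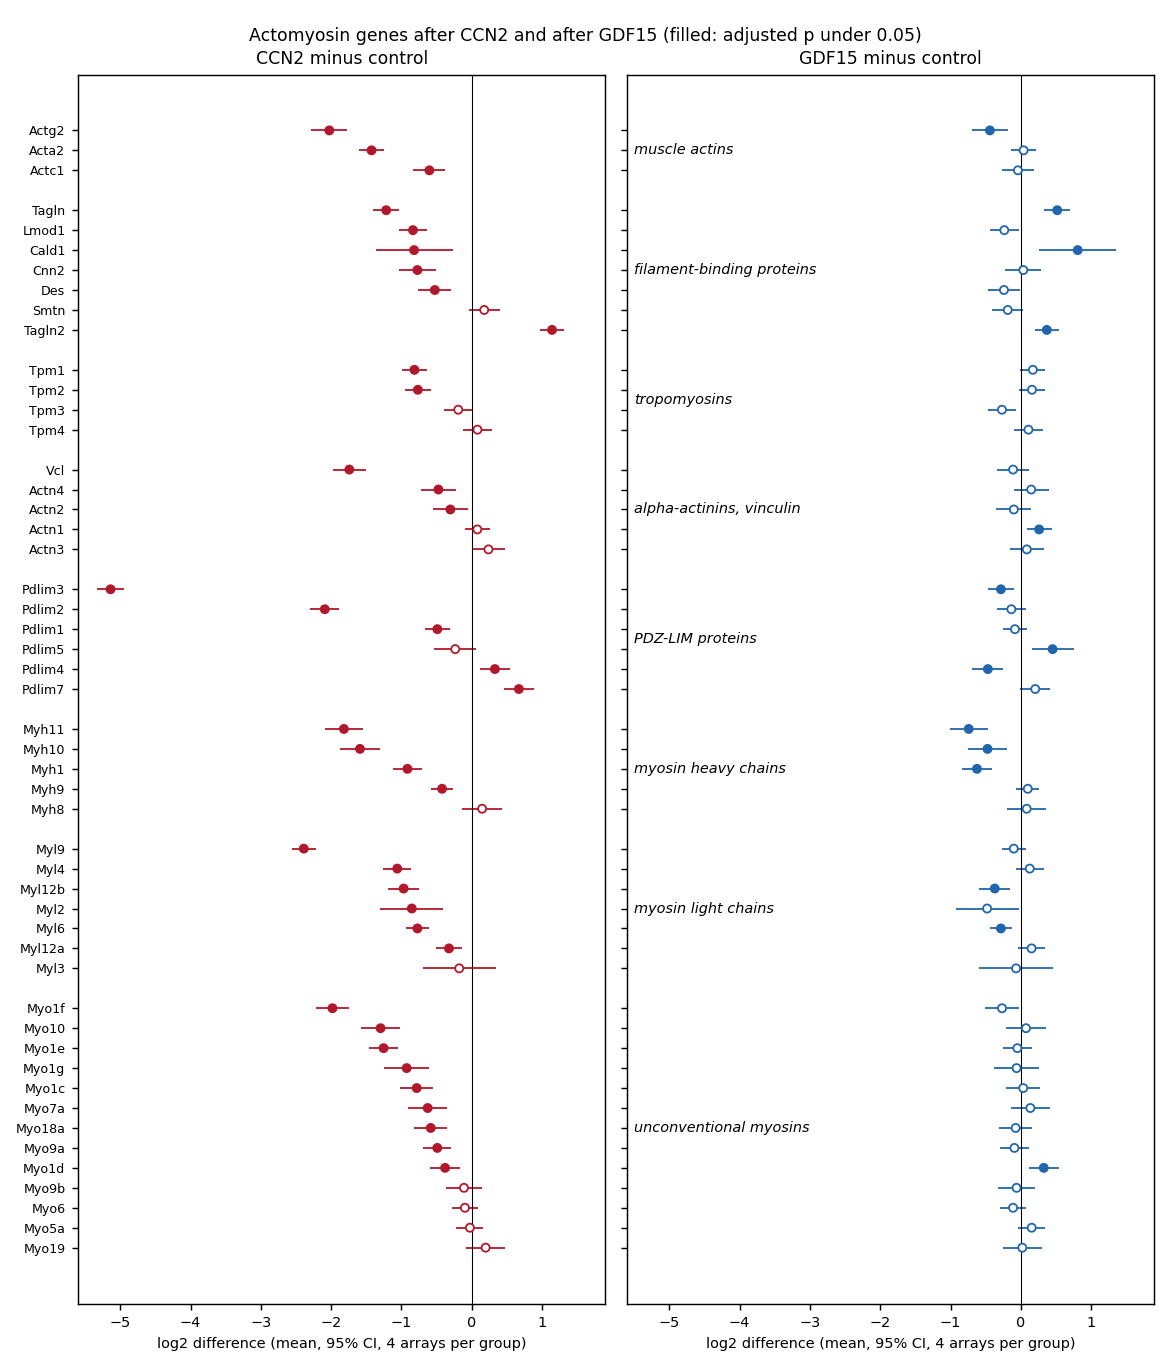
Log2 difference of each of the 50 members, CCN2 minus control on the left and GDF15 minus control on the right, with the 95% confidence interval of the fit (4 arrays per group), grouped by role. Filled points have an adjusted p under 0.05. After CCN2 most points lie left of 0, with Pdlim3 at -5.14 farthest out, and after GDF15 all lie between -0.74 and 0.81.

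All 3 muscle actins that were detected fell after CCN2. Values per array are normalized intensities on the log2 scale, in order of array number within each group. Acta2, the smooth muscle actin, read 12.56, 12.44, 12.64 and 12.61 on the CCN2 arrays, 13.93, 13.96, 14.15 and 14.06 on the GDF15 arrays and 14.01, 13.86, 14.07 and 14.01 on the control arrays. The CCN2 arrays lay far below both other groups, which overlapped. The log2 difference was -1.43 (SE 0.085, adjusted p = 2.37e-10) after CCN2, a decrease of 2.69-fold, and 0.04 (SE 0.085, adjusted p = 0.808) after GDF15, with an interval of -0.14 to 0.22. Actg2, the enteric smooth muscle actin, read 4.90, 5.36, 5.27 and 5.17 on the CCN2 arrays, 6.79, 6.65, 7.06 and 6.55 on the GDF15 arrays and 7.19, 7.16, 7.38 and 7.07 on the control arrays. Here the 3 groups stood apart, CCN2 lowest and GDF15 between it and control. It fell by 2.03 log2 units (SE 0.12, adjusted p = 2.42e-10) after CCN2 and by 0.44 log2 units (SE 0.12, adjusted p = 0.0149) after GDF15, and the second call was lost without control array 3 (-0.38, adjusted p = 0.0529). Actc1, the cardiac actin, read 5.29, 5.09, 5.48 and 5.34 on the CCN2 arrays, 6.00, 5.85, 5.74 and 5.85 on the GDF15 arrays and 5.68, 6.03, 6.08 and 5.82 on the control arrays. Every CCN2 array was below every other array, and GDF15 and control overlapped, with -0.60 (SE 0.11, adjusted p = 0.000144) after CCN2 and -0.04 (SE 0.11, adjusted p = 0.839) after GDF15. Acta1, the skeletal actin, was detected on no array. Muscle actins are near-identical in coding sequence, and cross-hybridization between their probes was not tested. The 11 pericyte and smooth muscle markers that are no members had median log2 differences of -0.76 after CCN2 and -0.28 after GDF15, and their part in the values of Acta2, Actg2, Tagln, Myh11 and Myl9 was not tested.

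Acta2 had 5 tested probes. The 4 brightest fell after CCN2, by log2 differences of -1.43, -1.60, -2.06 and -1.94 in order of brightness. The dimmest was detected on no CCN2 array and on 3 control arrays, and was at least 1.07-fold lower after CCN2 (adjusted p = 0.0352), with mean log2 values of 4.38 on CCN2 arrays and 4.69 on control arrays. No Acta2 probe passed the threshold after GDF15, at -0.17 to 0.34.

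Among the filament-binding proteins 5 of 7 fell and 1 rose after CCN2, and 3 rose after GDF15. Both the 5 and the 3 include Cald1 by its brightest probe, for which no direction is drawn below. Tagln encodes transgelin, also known as SM22-alpha, an actin-bundling protein of smooth muscle. Its values were 6.86, 6.71, 6.70 and 6.93 on the CCN2 arrays, 8.48, 8.39, 8.60 and 8.68 on the GDF15 arrays and 8.08, 7.96, 8.00 and 8.03 on the control arrays. The 3 groups were separate, with CCN2 below and GDF15 above control. The log2 difference was -1.22 (SE 0.088, adjusted p = 3.35e-09) after CCN2 and 0.52 (SE 0.088, adjusted p = 0.000369) after GDF15. Its widely expressed relative Tagln2 read 12.06, 12.00, 12.23 and 12.12 on the CCN2 arrays, 11.41, 11.31, 11.34 and 11.26 on the GDF15 arrays and 10.85, 10.96, 11.08 and 10.95 on the control arrays. Again the groups did not overlap, but here CCN2 was highest and control lowest. Tagln2 rose by 1.14 (SE 0.083, adjusted p = 3.22e-09) after CCN2, 2.21-fold, and by 0.37 (SE 0.083, adjusted p = 0.00382) after GDF15. It had the largest increase of any member after CCN2.

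Cald1 encodes caldesmon, which holds tropomyosin-decorated actin away from myosin. Its brightest probe read 7.19, 7.58, 7.48 and 8.41 on the CCN2 arrays, 8.75, 9.47, 8.96 and 10.00 on the GDF15 arrays and 8.15, 8.39, 8.55 and 8.84 on the control arrays. The spread within each treated group was wide, and CCN2 array 8 and GDF15 array 9 lay within the control range. By that probe Cald1 was at -0.82 (SE 0.26, adjusted p = 0.0137) after CCN2 and 0.81 (SE 0.26, adjusted p = 0.0359) after GDF15. The other 4 probes were all higher after CCN2, at 0.47, 0.45, 0.28 and 0.49, of which 3 passed the threshold, so the gene was called in both directions. Averaged over its probes it was at 0.18 after CCN2 (adjusted p = 0.222). The CCN2 call was also lost without CCN2 array 5 (-0.66, adjusted p = 0.0523). The GDF15 call of the brightest probe was lost when control array 1, 2 or 3 or GDF15 array 10 or 12 was left out (0.57 to 0.83, adjusted p = 0.0606 to 0.113). No direction is drawn for Cald1.

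Cnn2, a calponin that stabilizes filaments, read 7.65, 7.54, 7.72 and 7.57 on the CCN2 arrays, 8.38, 8.36, 8.44 and 8.54 on the GDF15 arrays and 8.07, 8.33, 8.35 and 8.82 on the control arrays. CCN2 lay below the other groups, which overlapped, with -0.77 (SE 0.12, adjusted p = 4.39e-05) after CCN2 and 0.04 (SE 0.12, adjusted p = 0.885) after GDF15. Lmod1, leiomodin, starts actin filaments in smooth muscle. It was detected on all GDF15 and control arrays and on no CCN2 array, and was at least 1.51-fold lower than control (adjusted p = 1.07e-06), from a mean log2 value of 4.36 on the CCN2 arrays, not well above background, and 5.19 on the control arrays. After GDF15 it was at -0.24 (SE 0.095, adjusted p = 0.0992). Des, the intermediate filament desmin of muscle, read 6.10, 6.21, 5.76 and 6.10 on the CCN2 arrays, 6.18, 6.39, 6.55 and 6.18 on the GDF15 arrays and 6.65, 6.44, 6.61 and 6.58 on the control arrays. CCN2 lay below control, and GDF15 overlapped with both. It fell by 0.53 log2 units (SE 0.11, adjusted p = 0.000654) after CCN2 and was at -0.24 (SE 0.11, adjusted p = 0.145) after GDF15. Smtn, smoothelin, passed no threshold, at 0.18 (SE 0.10, adjusted p = 0.168) after CCN2, or 0.26 without CCN2 array 8 (adjusted p = 0.0493), and -0.19 (SE 0.10, adjusted p = 0.242) after GDF15. Cnn1, the smooth muscle calponin, and Synpo2 were detected on no array, and Cnn3 was not analysed here.

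Of the 4 tropomyosins, which coil along the actin filament and gate myosin, Tpm1 and Tpm2 fell after CCN2 and Tpm3 and Tpm4 passed no threshold. Tpm1 read 11.47, 11.42, 11.40 and 11.39 on the CCN2 arrays, 12.29, 12.29, 12.52 and 12.54 on the GDF15 arrays and 12.20, 12.24, 12.33 and 12.18 on the control arrays. The CCN2 arrays were all lower than the rest, and the 2 lowest GDF15 arrays lay within the control range. Tpm2 read 9.07, 9.30, 9.20 and 9.39 on the CCN2 arrays, 10.17, 10.14, 10.08 and 10.28 on the GDF15 arrays and 9.96, 9.93, 10.12 and 10.02 on the control arrays. It showed the same separation of CCN2 and the same overlap of GDF15 with control. The log2 differences after CCN2 were -0.82 (SE 0.084, adjusted p = 3.09e-07) for Tpm1 and -0.77 (SE 0.088, adjusted p = 1.18e-06) for Tpm2, against 0.17 (SE 0.084, adjusted p = 0.179) and 0.16 (SE 0.088, adjusted p = 0.242) after GDF15. Tpm3 was at -0.19 (SE 0.094, adjusted p = 0.0996) after CCN2 and -0.27 (SE 0.094, adjusted p = 0.0534) after GDF15, and Tpm4 at 0.08 (SE 0.10, adjusted p = 0.528) and 0.11 (SE 0.10, adjusted p = 0.514). Tpm3 passed the threshold after CCN2 under 3 of the 21 alternatives, which were median scaling, the mean of its probes and leaving out CCN2 array 5 (-0.33 to -0.26, adjusted p = 0.00172 to 0.0374). After GDF15 it did so under 10 of 21 (-0.32 to -0.25, adjusted p = 0.0129 to 0.0458), among them the authors' processed values, an offset of 50, the mean of its probes, and leaving out CCN2 array 5 or 6 or GDF15 array 12. The second Tpm3 probe fell after CCN2 (-0.51) and after GDF15 (-0.31). The third Tpm4 probe rose after CCN2 (0.47) and after GDF15 (0.97, adjusted p = 1.99e-05), while the brighter 2 passed no threshold.

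Vcl encodes vinculin, which links actin to focal adhesions. It read 10.21, 10.60, 10.40 and 10.28 on the CCN2 arrays, 12.10, 11.71, 12.01 and 12.20 on the GDF15 arrays and 12.14, 12.12, 12.17 and 12.03 on the control arrays. CCN2 lay apart at the bottom, and GDF15 and control overlapped. Its log2 difference was -1.74 (SE 0.11, adjusted p = 4.99e-10) after CCN2, 3.34-fold lower, and -0.11 (SE 0.11, adjusted p = 0.548) after GDF15. The alpha-actinins, which cross-link filaments, split. Actn4 fell by 0.47 log2 units (SE 0.12, adjusted p = 0.00265) after CCN2. Actn1, the main non-muscle form together with Actn4, read 11.21, 11.36, 11.31 and 11.25 on the CCN2 arrays, 11.42, 11.38, 11.51 and 11.53 on the GDF15 arrays and 11.15, 11.18, 11.38 and 11.10 on the control arrays. The lowest GDF15 array lay just above the highest control array, while CCN2 overlapped with control. It was at 0.08 (SE 0.084, adjusted p = 0.459) after CCN2 and 0.26 (SE 0.084, adjusted p = 0.0367) after GDF15, and the GDF15 call was lost when any of control arrays 1, 2 and 4 or GDF15 arrays 9, 11 and 12 was left out (adjusted p = 0.0551 to 0.109), and with median scaling or only those groups in the fit. The muscle forms were dim. Actn2 was at -0.30 (SE 0.12, adjusted p = 0.0393) after CCN2, with overlap and detection on 2 of 4 CCN2 arrays. Leaving out 6 of the arrays ended this call one at a time: control 1, 2 or 3 or CCN2 5, 6 or 8 (adjusted p = 0.0753 to 0.110). So did the authors' processed values, an offset of 50, no detection filter and array weights (adjusted p = 0.0508 to 0.0907). Actn3 was at 0.24 (SE 0.11, adjusted p = 0.0888) after CCN2, or 0.31 without CCN2 array 5 (adjusted p = 0.0375).

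The PDZ-LIM proteins tie alpha-actinin to kinases and other partners, and they moved both ways. Pdlim3, also called ALP, had the largest change of all members. It read 6.30, 6.55, 6.28 and 6.18 on the CCN2 arrays, 11.16, 11.10, 11.24 and 11.24 on the GDF15 arrays and 11.50, 11.39, 11.55 and 11.42 on the control arrays. Every CCN2 array lay far below all others, and the GDF15 arrays lay slightly below control without overlap. Its log2 difference was -5.14 (SE 0.090, adjusted p = 5.33e-17) after CCN2, a decrease of 35.2-fold, and -0.28 (SE 0.090, adjusted p = 0.0337) after GDF15. Its second probe gave -5.21 and -0.40. The GDF15 call of the first was lost when control array 1, 3 or 4 or GDF15 array 9 or 10 was left out (adjusted p = 0.0541 to 0.0931), and with median scaling. Pdlim2 read 8.49, 8.40, 8.74 and 8.40 on the CCN2 arrays, 10.41, 10.42, 10.53 and 10.49 on the GDF15 arrays and 10.64, 10.80, 10.53 and 10.43 on the control arrays. CCN2 was separate and low, GDF15 and control overlapped. It fell by 2.09 log2 units (SE 0.099, adjusted p = 1.15e-11) after CCN2, with -2.09 to -2.23 over its 4 probes, and was at -0.14 (SE 0.099, adjusted p = 0.393) after GDF15. Pdlim1 fell by 0.49 log2 units (SE 0.082, adjusted p = 8.54e-05) after CCN2.

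Pdlim7, known as Enigma, read 10.32, 10.47, 10.33 and 10.21 on the CCN2 arrays, 10.03, 9.82, 10.03 and 9.58 on the GDF15 arrays and 9.64, 9.68, 9.63 and 9.69 on the control arrays. CCN2 was highest on every array, and GDF15 overlapped with control. It rose by 0.67 (SE 0.10, adjusted p = 2.39e-05) after CCN2 and was at 0.21 (SE 0.10, adjusted p = 0.176) after GDF15, where leaving out GDF15 array 12 gave 0.30 (adjusted p = 0.0256). Pdlim4, known as RIL, read 8.68, 8.69, 8.44 and 8.62 on the CCN2 arrays, 7.50, 7.98, 7.84 and 7.92 on the GDF15 arrays and 8.19, 8.27, 8.37 and 8.28 on the control arrays. The groups stood apart, with CCN2 above and GDF15 below control. By this probe Pdlim4 rose by 0.33 (SE 0.10, adjusted p = 0.0132) after CCN2 and fell by 0.47 log2 units (SE 0.10, adjusted p = 0.00348) after GDF15, but its second probe passed neither threshold, at 0.02 and 0.28. With median scaling the CCN2 value was 0.06, without a call, and as a mean of probes neither call held. Pdlim5, known as ENH, read 7.43, 7.53, 7.44 and 7.75 on the CCN2 arrays, 7.68, 8.49, 8.29 and 8.44 on the GDF15 arrays and 7.83, 7.68, 7.81 and 7.77 on the control arrays. GDF15 array 9 lay at the lowest control array, and the other GDF15 arrays were above all arrays of both other groups. It was at -0.23 (SE 0.14, adjusted p = 0.181) after CCN2 and 0.45 (SE 0.14, adjusted p = 0.032) after GDF15, and its second probe at -0.45 and 0.57. The GDF15 call of the first probe was lost in 7 leave-one-out fits, those without any 1 control array or without GDF15 array 10, 11 or 12 (adjusted p = 0.0548 to 0.107). Median scaling (0.38, adjusted p = 0.127) and no detection filter (adjusted p = 0.103) ended that call too. The Pdlim5 decrease after CCN2 passed the threshold under 4 of 21 alternatives (-0.50 to -0.23, adjusted p = 0.0144 to 0.0428). They were median scaling, the mean of its probes, only the groups compared, and leaving out GDF15 array 9.

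**Figure D2:**
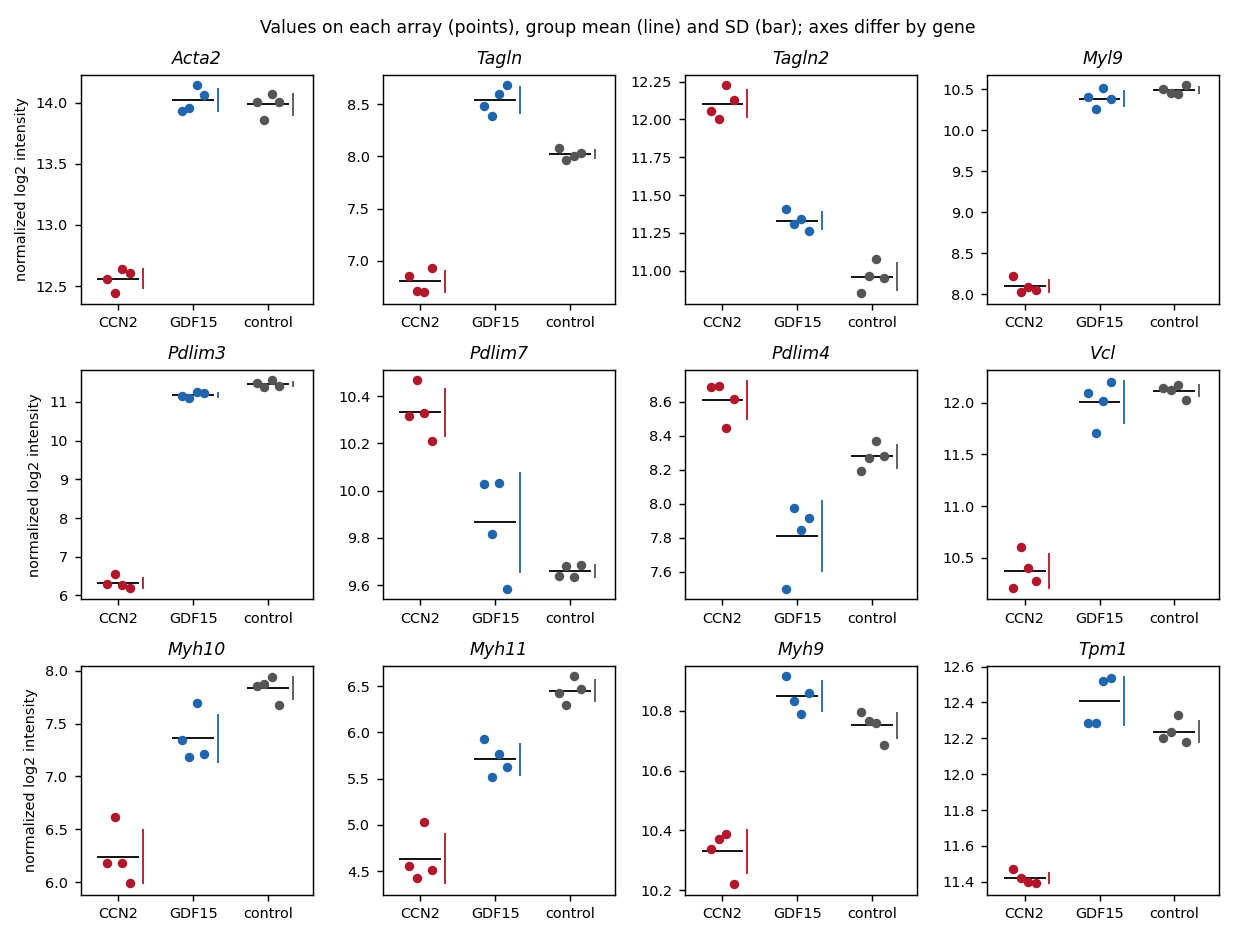
Normalized log2 intensity of 12 members on each array, by group (CCN2, GDF15, control), with the group mean as a line and the SD as a bar, n = 4 each. The vertical axes differ by gene. Tagln is lowest after CCN2 and highest after GDF15, Tagln2 and Pdlim7 are highest after CCN2, and Myh11 has GDF15 between CCN2 and control.

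**Figure D3:**
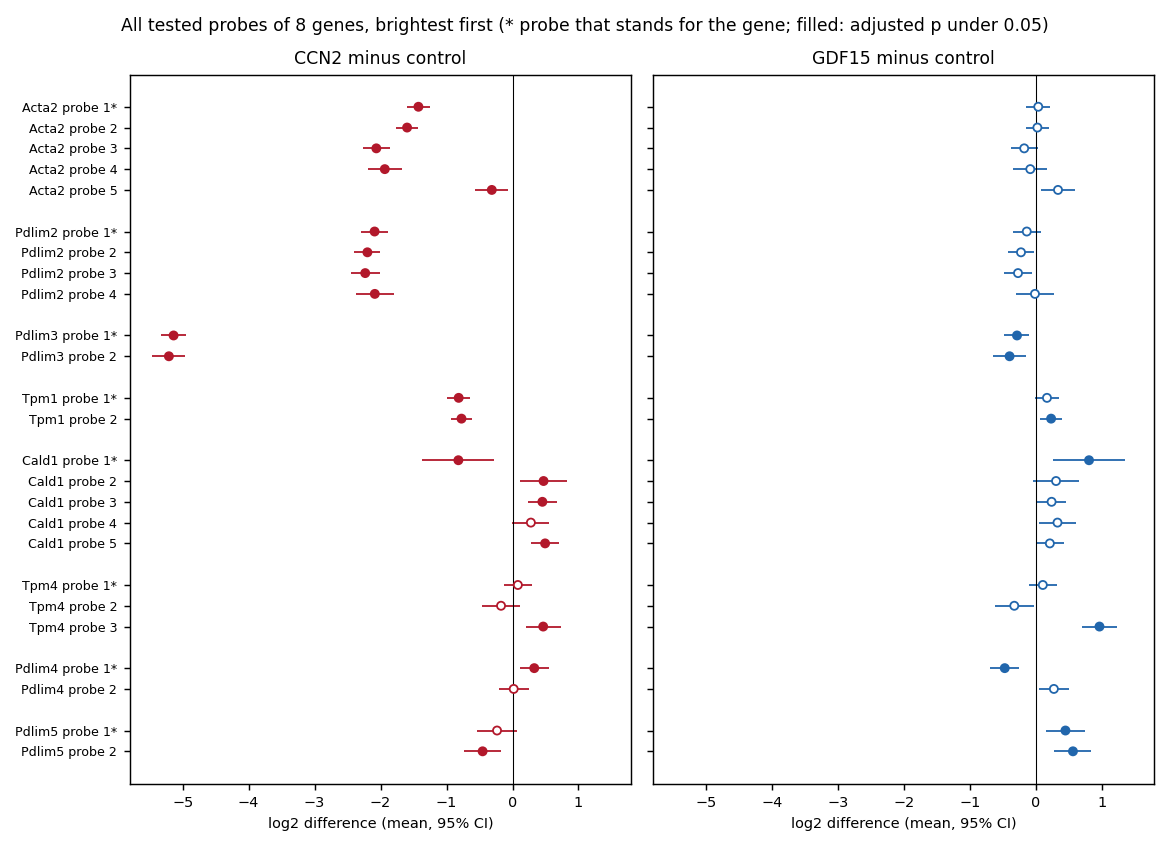
Log2 difference with its 95% confidence interval for every tested probe of 8 members, CCN2 minus control on the left and GDF15 minus control on the right. Filled points have an adjusted p under 0.05 and the star marks the probe that stands for the gene. The Acta2, Pdlim2, Pdlim3 and Tpm1 probes all lie below 0 after CCN2, while the Cald1 and Tpm4 probes lie on both sides.

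Of 23 members with several tested probes, 18 had all probes on one side of 0 after CCN2 and 19 after GDF15. Cald1 was the one member called both ways, as described above.

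Conventional myosin heavy chains carry the motor and the tail that builds bipolar filaments. Of the 5 tested, 4 fell after CCN2 and 3 after GDF15. Myh11, the smooth muscle heavy chain, read 4.56, 4.42, 5.04 and 4.51 on the CCN2 arrays, 5.93, 5.52, 5.76 and 5.62 on the GDF15 arrays and 6.43, 6.30, 6.61 and 6.47 on the control arrays. The groups did not overlap, with CCN2 lowest and GDF15 between it and control. It was detected on 1 of 4 CCN2 arrays, array 7, and on all others. Its log2 difference was -1.82 (SE 0.13, adjusted p = 2.09e-09) after CCN2 and -0.74 (SE 0.13, adjusted p = 0.000392) after GDF15. Myh10, the heavy chain of non-muscle myosin IIB, read 6.18, 6.61, 6.18 and 6.00 on the CCN2 arrays, 7.35, 7.19, 7.69 and 7.21 on the GDF15 arrays and 7.85, 7.87, 7.94 and 7.67 on the control arrays. CCN2 was lowest throughout, and GDF15 array 11 just entered the control range. It was at -1.59 (SE 0.13, adjusted p = 1.89e-08) after CCN2, 3.01-fold lower, and -0.47 (SE 0.13, adjusted p = 0.0165) after GDF15. The GDF15 call was lost without GDF15 array 10 (-0.42, adjusted p = 0.0565) and without the detection filter (-0.47, adjusted p = 0.0565).

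Myh9, the heavy chain of non-muscle myosin IIA, read 10.34, 10.37, 10.39 and 10.22 on the CCN2 arrays, 10.92, 10.83, 10.79 and 10.86 on the GDF15 arrays and 10.79, 10.77, 10.76 and 10.69 on the control arrays. CCN2 lay below both other groups, and the lowest GDF15 array overlapped with the highest control array. It was at -0.42 (SE 0.076, adjusted p = 0.000165) after CCN2, a decrease of 1.34-fold, and 0.10 (SE 0.076, adjusted p = 0.423) after GDF15. Among the 4 heavy chains that fell after CCN2, Myh9 had the smallest change. Myh1, a fast skeletal heavy chain, was dim: detected on no CCN2 array, 1 GDF15 array and all 4 control arrays. It was at least 1.47-fold lower after CCN2 (adjusted p = 5.36e-07, mean log2 values 4.24 and 5.16 in CCN2 and control) and at -0.62 (SE 0.099, adjusted p = 0.000176) after GDF15. Myh8 passed no threshold. Myh6 and Myh7, the cardiac heavy chains, Myh4, Myh14 and Myh15 were not detected on enough arrays to be tested.

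The light chains bind the neck of the heavy chain, and 6 of 7 fell after CCN2. Myl9, the smooth muscle regulatory light chain that myosin light chain kinase phosphorylates, read 8.22, 8.03, 8.09 and 8.06 on the CCN2 arrays, 10.41, 10.26, 10.51 and 10.38 on the GDF15 arrays and 10.51, 10.45, 10.44 and 10.55 on the control arrays. CCN2 lay far below both other groups, which overlapped. It fell by 2.39 log2 units (SE 0.082, adjusted p = 1.66e-13) after CCN2, 5.24-fold, and was at -0.10 (SE 0.082, adjusted p = 0.451) after GDF15. The non-muscle regulatory chains Myl12a and Myl12b had smaller differences. Myl12b read 10.80, 10.86, 10.97 and 10.87 on the CCN2 arrays, 11.62, 11.55, 11.23 and 11.49 on the GDF15 arrays and 11.95, 11.69, 12.03 and 11.71 on the control arrays. All 3 groups stood apart, in the order CCN2, GDF15, control. Myl12a read 6.96, 7.03, 7.22 and 7.09 on the CCN2 arrays, 7.53, 7.62, 7.67 and 7.38 on the GDF15 arrays and 7.35, 7.31, 7.45 and 7.48 on the control arrays. Here only CCN2 was separate. The log2 difference after CCN2 was -0.97 (SE 0.10, adjusted p = 4.74e-07) for Myl12b and -0.32 (SE 0.089, adjusted p = 0.00579) for Myl12a. After GDF15 it was -0.37 (SE 0.10, adjusted p = 0.0171) for Myl12b and 0.15 (SE 0.089, adjusted p = 0.269) for Myl12a. The Myl12b call was lost without control array 1 or 3 or GDF15 array 11 (adjusted p = 0.0587 to 0.0606), and with median scaling (-0.32, adjusted p = 0.0608). These paralogues share most of their coding sequence, and cross-hybridization was not tested.

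Myl6, the essential light chain of smooth muscle and non-muscle myosin, read 12.27, 12.23, 12.21 and 12.22 on the CCN2 arrays, 12.67, 12.77, 12.80 and 12.65 on the GDF15 arrays and 13.04, 13.07, 12.90 and 13.02 on the control arrays. The groups were separate, with CCN2 lowest and control highest. It fell by 0.77 log2 units (SE 0.076, adjusted p = 1.81e-07) after CCN2 and by 0.28 log2 units (SE 0.076, adjusted p = 0.0137) after GDF15, and the GDF15 call was lost with median scaling (-0.13). Myl4, the atrial essential chain, read 6.88, 6.95, 6.77 and 6.69 on the CCN2 arrays, 7.96, 8.08, 8.18 and 7.81 on the GDF15 arrays and 7.88, 7.83, 7.86 and 7.97 on the control arrays. CCN2 lay below, and the other groups overlapped. It fell by 1.06 log2 units (SE 0.093, adjusted p = 4.15e-08) after CCN2.

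For the ventricular light chains Myl2 and Myl3, some calls changed when CCN2 array 7 was left out. Myl2 read 5.04, 4.52, 5.66 and 4.43 on the CCN2 arrays, 5.60, 5.24, 5.33 and 4.98 on the GDF15 arrays and 5.77, 6.08, 5.68 and 5.53 on the control arrays. Array 7 was the highest CCN2 array and reached the control range, and the other CCN2 arrays lay below it. Myl3 read 4.98, 4.41, 5.96 and 4.54 on the CCN2 arrays, 5.11, 4.95, 5.25 and 5.02 on the GDF15 arrays and 5.28, 5.50, 5.06 and 4.77 on the control arrays. Here CCN2 array 7 was the highest of all 12, and the groups overlapped. Each was detected on 2 of 4 CCN2 arrays and on all others. Myl2 was at -0.85 (SE 0.21, adjusted p = 0.00277) after CCN2 with overlap and at -0.48 (SE 0.21, adjusted p = 0.132) after GDF15. Its CCN2 decrease held under all 21 alternatives. Myl3 was at -0.18 (SE 0.25, adjusted p = 0.58), but without CCN2 array 7 at -0.51 (adjusted p = 0.0167). The GDF15 decrease of Myl2 passed the threshold without that array (-0.48, adjusted p = 0.0410), with median scaling (-0.59) and with only those groups in the fit. Array 7 was also the one CCN2 array on which Myh6 was detected. Within its group it was the highest for Actc1 (5.48), Actn2 (5.06) and Myh8 (5.08) as well, but the lowest for Des (5.76) and for Myh1 (4.20). Of the cardiomyocyte markers that are no members, 3 of 6 fell and 2 rose after CCN2, against 30.2% and 25.7% of all genes. The summed signal of these markers was 213 to 284 on the CCN2 arrays, with 255 on array 7 and the highest value on array 5. It was 340 to 414 on the GDF15 arrays and 393 to 475 on the control arrays. The part of these markers in the values above was not tested.

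Unconventional myosins move membranes and organelles along actin or tether them to it. Of 13 tested, 9 fell and none rose after CCN2, and after GDF15 only Myo1d changed. The log2 differences of Myo5a, Myo6, Myo9b and Myo19, which passed no threshold, were between -0.11 and 0.20 after CCN2. With median scaling Myo5a (-0.30), Myo6 (-0.37) and Myo9b (-0.32) were called lower (adjusted p = 0.00816 to 0.0341), and the second Myo5a probe was at -0.35 (adjusted p = 0.00384). Myo1f, a long-tailed class I myosin known from blood cells, read 6.91, 6.95, 6.65 and 7.06 on the CCN2 arrays, 8.71, 8.52, 8.76 and 8.44 on the GDF15 arrays and 8.79, 8.88, 8.71 and 9.11 on the control arrays. CCN2 lay far below the other groups, which overlapped. It fell by 1.98 log2 units (SE 0.11, adjusted p = 1.20e-10) after CCN2, 3.95-fold, and was at -0.27 (SE 0.11, adjusted p = 0.109) after GDF15. Myo1g, known from lymphoid and myeloid cells, read 6.09, 6.30, 6.07 and 6.10 on the CCN2 arrays, 7.21, 6.91, 7.43 and 6.46 on the GDF15 arrays and 7.10, 6.94, 7.05 and 7.17 on the control arrays. CCN2 was lowest, and GDF15 array 12 was the lowest of the others. It was at -0.93 (SE 0.15, adjusted p = 6.24e-05) after CCN2. On the same arrays 9 of 11 macrophage markers fell and 1 rose after CCN2, against 30.2% and 25.7% of all genes. After GDF15 7 of these markers fell, against 12.7% of all genes. The median log2 difference of the markers was -1.49 after CCN2 and -0.36 after GDF15. Their part in the values of Myo1f and Myo1g was not tested.

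Myo10, which builds filopodia, read 5.89, 5.66, 5.85 and 5.53 on the CCN2 arrays, 7.42, 6.82, 7.26 and 6.91 on the GDF15 arrays and 6.99, 6.92, 7.28 and 6.94 on the control arrays. The CCN2 arrays were all lowest, and GDF15 overlapped with control. Myo1e, an adhesion and endocytosis myosin, read 7.18, 6.88, 7.17 and 7.05 on the CCN2 arrays, 8.19, 8.12, 8.33 and 8.46 on the GDF15 arrays and 8.26, 8.31, 8.44 and 8.29 on the control arrays. It showed the same pattern. They fell by 1.30 log2 units (SE 0.13, adjusted p = 2.58e-07) and by 1.25 log2 units (SE 0.097, adjusted p = 7.54e-09) after CCN2. The third Myo10 probe, at -0.14, passed no threshold. Myo1d read 4.94, 5.06, 4.99 and 5.01 on the CCN2 arrays, 5.91, 5.48, 5.67 and 5.75 on the GDF15 arrays and 5.20, 5.31, 5.57 and 5.44 on the control arrays. CCN2 lay below control and GDF15 mostly above it. It fell by 0.38 log2 units (SE 0.10, adjusted p = 0.0048) after CCN2 and was at 0.33 (SE 0.10, adjusted p = 0.0318) after GDF15. The GDF15 call was lost when control array 1 or 2 or GDF15 array 9 or 12 was left out (adjusted p = 0.0603 to 0.113). It was also lost with median scaling (0.24, adjusted p = 0.1575), without the detection filter, with only those groups in the fit and with a trended robust fit. Myo1c, Myo7a, Myo18a and Myo9a also fell after CCN2, at -0.78, -0.63, -0.58 and -0.49. The second Myo9a probe was at 0.0008 (adjusted p = 0.997) and the third Myo1c probe at -0.04 (adjusted p = 0.818) after CCN2. With the mean of its probes, the Myo9a call was lost (-0.24, adjusted p = 0.0546).

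**Figure D4:**
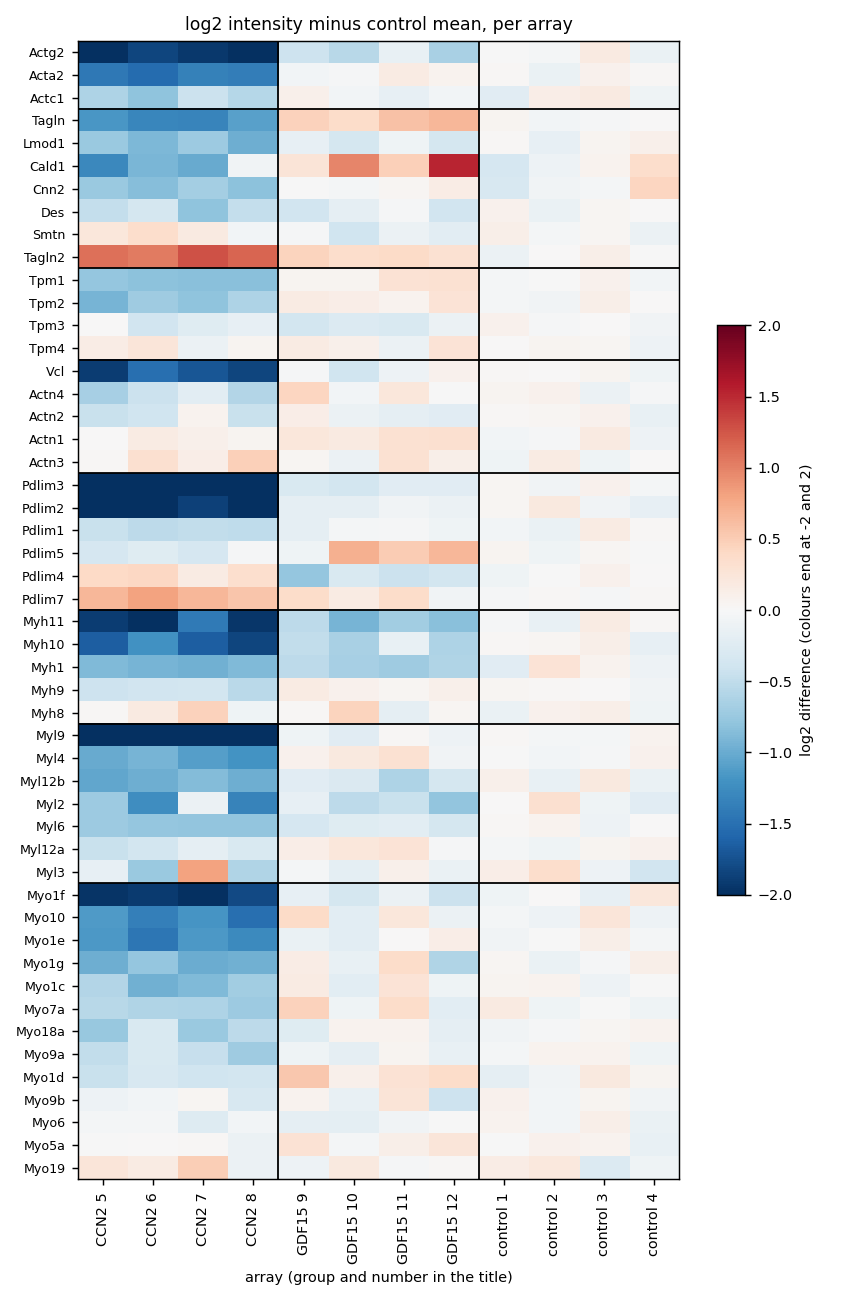
Log2 intensity of each member on each array minus the mean of the 4 control arrays, with members ordered by role and arrays by group. Colours end at -2 and 2. The CCN2 columns are blue over most rows, Tagln2, Pdlim7 and Pdlim4 are red there, and Myl3 on CCN2 array 7 stands out from the other CCN2 arrays.

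GDF15 and CCN2 were given at different doses, 500 and 200 nmol/L, so their contrast compares the preparations as used. The log2 differences of this contrast take no control mean, but the control arrays enter its SE and p-values through the shared fit. It also shares the treated arrays with the comparisons above. In it, 34 members were higher and 4 lower in GDF15 than in CCN2, and 12 passed no threshold, against 23.8% and 22.0% of all genes. The median was 0.58, with 0.00 for all genes. By 2-fold or more, 14 members were higher in GDF15 and none lower, against 5.03% and 3.82% of all genes. The differences were largest for Pdlim3 (4.86, SE 0.090, adjusted p = 2.29e-16), Myl9 (2.29, SE 0.082, adjusted p = 6.30e-13), Pdlim2 (1.96, SE 0.099, adjusted p = 5.11e-11) and Tagln (1.74, SE 0.088, adjusted p = 5.50e-11). Myo1f, Vcl and Actg2 followed at 1.71, 1.63 and 1.59. The brightest Cald1 probe was at 1.63, but its dimmest was called lower (-0.28, adjusted p = 0.0323) and the mean of its probes passed no threshold (0.21, adjusted p = 0.170), so no direction is drawn here either. The genes lower in GDF15 were Pdlim4 (-0.80, SE 0.10, adjusted p = 7.22e-06), Tagln2 (-0.77, SE 0.083, adjusted p = 7.51e-07), Pdlim7 (-0.47, SE 0.10, adjusted p = 0.00117) and Smtn (-0.36, SE 0.10, adjusted p = 0.00934). Smtn differed here although neither treatment passed the threshold against control, and its call was lost with median scaling (-0.17). The calls of Des and Myh1 were lost in 9 and 3 of the 12 leave-one-out fits. That of Des ended without any 1 control array, CCN2 array 5, 7 or 8, or GDF15 array 10 or 11 (0.19 to 0.30), and that of Myh1 without CCN2 array 6 or 7 or GDF15 array 9 (0.26 to 0.28). Myh1, counted among the 34, was detected on no CCN2 array and 1 GDF15 array. Its values here lie near background and give no fold bound. The Myh1 call was also lost with median scaling (0.28, adjusted p = 0.0609) and an offset of 50 (0.11, adjusted p = 0.136). That of Des was also lost without the detection filter (adjusted p = 0.0930) and with only those groups in the fit (adjusted p = 0.0806). Without CCN2 array 7, Myl2, Myl3 and Actn2 also passed the threshold, at 0.62, 0.44 and 0.33.

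Other genes of the pathway were taken from lists of regulators and partners. The values of 4 called genes that act on myosin phosphorylation are given. They were picked from a longer list to show both directions, so their split is not a result about that list. Mylk, the myosin light chain kinase, was at -2.53 (SE 0.091, adjusted p = 3.32e-13) after CCN2 and -0.71 (SE 0.091, adjusted p = 2.06e-05) after GDF15. Ppp1r14a, also called CPI-17, inhibits myosin phosphatase, and was at -0.998 (SE 0.15, adjusted p = 2.09e-05) after CCN2 and -0.62 (SE 0.15, adjusted p = 0.00628) after GDF15. Ppp1r12a, the targeting subunit of that phosphatase, rose by 0.40 (SE 0.14, adjusted p = 0.026) after CCN2 and by 0.57 (SE 0.14, adjusted p = 0.0082) after GDF15. Ppp1r14b, another phosphatase inhibitor, rose by 0.34 (SE 0.12, adjusted p = 0.0253) after CCN2 and by 0.40 (SE 0.12, adjusted p = 0.0264) after GDF15.

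The list of transcription by SRF and MRTF held 24 symbols, with MRTF-A and MRTF-B each under an old and a new one. Of these symbols 20 were annotated, and 17 genes were tested. After CCN2 1 was higher and 7 were lower (5.88% and 41.2%, against 25.7% and 30.2% of all genes). After GDF15 1 was higher and 3 were lower (5.88% and 17.6%, against 9.76% and 12.7%). Srf itself was at -0.02 (SE 0.079, adjusted p = 0.867) after CCN2 and rose by 0.43 (SE 0.079, adjusted p = 0.000731) after GDF15. The LIM proteins Fhl1 and Fhl2 fell, at -2.51 (SE 0.079, adjusted p = 6.12e-14) and -2.22 (SE 0.080, adjusted p = 2.97e-13) after CCN2, as did the transcription factor Mef2c (-2.30, SE 0.15, adjusted p = 5.64e-10) and the LIM protein Csrp1 (-0.96, SE 0.10, adjusted p = 6.32e-07). After GDF15 Mef2c was at -0.50 (SE 0.15, adjusted p = 0.0217), Fhl1 at -0.42 (SE 0.079, adjusted p = 0.000896) and Phactr1, which binds actin monomers, at -0.41 (SE 0.10, adjusted p = 0.00795). The median of this list was -0.21 after CCN2 and 0.02 after GDF15, and that of all genes -0.02 in both.

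In the list of actin, filament capping and focal adhesion, 31 of 37 genes were tested, with 5 higher and 11 lower after CCN2 (16.1% and 35.5%) and 4 higher and 3 lower after GDF15 (12.9% and 9.68%). The shares lower after CCN2 and both shares after GDF15 lie near those of all genes. Gsn, gelsolin, which severs filaments, was at -3.10 (SE 0.097, adjusted p = 5.79e-14) after CCN2 and -1.57 (SE 0.097, adjusted p = 3.89e-09) after GDF15. Lims2, an adaptor of integrin-linked kinase, was at -1.76 (SE 0.11, adjusted p = 3.03e-10), Tmod2, a cap of the slow-growing filament end, at -1.07 (SE 0.12, adjusted p = 5.34e-07) and Synpo, synaptopodin, at -0.98 (SE 0.074, adjusted p = 5.10e-09) after CCN2. After GDF15 Palld, palladin, rose by 0.68 (SE 0.14, adjusted p = 0.00194), Tln2, a talin, by 0.66 (SE 0.12, adjusted p = 0.000658) and Lpp, an adhesion LIM protein, by 0.63 (SE 0.15, adjusted p = 0.00595). The median of this list was -0.16 after CCN2 and -0.0015 after GDF15.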

How the data were processed

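Total RNA was measured on 12 Illumina bead arrays, 4 each after CCN2, after GDF15 and without either. Per the file headers, the deposited non-normalized table pairs every probe's signal intensity with its detection p-value on each array, and GenomeStudio 2010.1 is named in the submitters' processing notes. The authors' processed intensities stand in another deposited table, whose columns rank probes as the first table does on all 12 arrays and lie within 0.392% of one set of quantiles. It was used as an alternative. Scanner settings and the build are not given in the sources read for this work.

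Intensities were background-corrected by normexp with the detection p-value, quantile-normalized and taken to log2 with an offset of 16 (neqc, limma 3.58.1, R 4.3.3), which shrinks changes of dim probes. Of 45281 probes, 20445 were detected (p under 0.05) on 4 or more arrays and tested in a group-means fit of all 12 arrays (lmFit and eBayes, 9 residual degrees of freedom), two-sided, with Benjamini-Hochberg adjustment over all tested probes and a threshold of 0.05. All SE come from this fit, as do the adjusted p-values given without an alternative, and the number of arrays limits precision. The fit was also run on simulated data with independent noise on each array, which cannot speak to replicates that may be technical. Where no array of a group detected a probe, the fold is a bound ("at least"): on each such array the probe was set to the faintest detected signal, or to its own value if that was higher, before the group means were compared. Gene symbols came from the platform annotation (34885 probes with 1 symbol, 18 with several, 10378 with none), checked through RefSeq GRCm38.p6, where none changed.

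The members, the pathway lists and 5 marker lists were chosen with earlier results of these data known. For 1 pathway list, the counts and all genes but 4 are not reported here. For each treatment against control the 10 largest called changes each way were named, for GDF15 minus CCN2 the 8 largest each way, with a set of core genes always named and up to 4 called genes per pathway list and treatment. Alternatives were the authors' processed values, median scaling, an offset of 50, no and a stricter detection filter (p under 0.01), only the groups compared, the mean of a gene's probes, array weights, a trended robust fit, and leaving out each array.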

Additional observations from a re-analysis of the deposited data

How the results depend on the processing

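Over the 50 members and 3 comparisons, 3144 values were recomputed, of which 3020 kept their direction and side of the threshold, 82 lost a call, 41 gained one and 1 reversed: Cald1 after CCN2, at 0.18 with the mean of its probes. Members higher after GDF15 numbered 3 with median scaling and 3 without the detection filter, against 6. The members' median after CCN2 moved to -0.51 with the authors' processed values, -0.83 with median scaling, -0.43 with an offset of 50, -0.70 with the stricter filter and -0.52 with the mean of probes. For GDF15 minus CCN2 it moved to 0.47 with the authors' processed values, 0.68 with median scaling, 0.44 with an offset of 50 and 0.49 with the mean of probes. Median scaling shifted the median of all genes by -0.187 after CCN2, -0.0471 after GDF15 and 0.137 in GDF15 minus CCN2, and moved the share of called genes that were higher to 25.6%, 32.4% and 73.1%, against 46%, 43.5% and 52%. The larger offset shrinks all differences by construction, and the stricter filter left 48 members, without the dim Actn3 and Myh8. The cause of the other shifts was not tested. Leaving out each array in turn gave 3 to 4 members higher and 34 to 36 lower after CCN2, with medians of -0.656 to -0.602. After GDF15 it gave 2 to 6 higher and 5 to 9 lower, with medians of -0.0702 to -0.0187. There, 2 were higher without control array 1 or 2 and 3 without GDF15 array 12, and 5 were lower without control array 3. In GDF15 minus CCN2 it gave 33 to 35 higher, 4 lower in each fit and medians of 0.537 to 0.626. No paired analysis was possible because the labels give no pairing. The sample numbers run on from 1 group to the next and cannot show whether arrays of different groups share a cell preparation. Dim members such as Myh1, Lmod1, Myh11, Actn2 and Myl2 lie near background on some or all CCN2 arrays, which limits the size of their decrease. Myl3, which was not called after CCN2, was detected on 2 of 4 CCN2 arrays.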

Other observations

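Of the 21 members that were not tested, the cardiac heavy chain Myh6 was detected on control array 3, CCN2 array 7 and GDF15 array 10. Its ventricular counterpart Myh7, by its most detected probe, and the atrial regulatory chain Myl7 were each detected on 1 array. The genes Acta1, Cnn1, Synpo2, Myh4, Myh14, Myh15 and Myl10 were detected on none, nor were 5 unconventional myosins, Myo15, Myo3a, Myo3b, Myo5b and Myo5c.

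Within groups, members did not order the arrays evenly. The same counts were not made over all genes, so whether this is particular to the members was not tested. GDF15 array 11 was the highest of its group for 21 of the 50 members and GDF15 array 10 the lowest for 19. Among CCN2 arrays, array 7 was highest for 18 members and array 8 lowest for 17. Control array 3 was highest for 20 and control array 4 lowest for 17.

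Of 9 endothelial markers tested, 8 fell and 1 rose after CCN2, against 30.2% and 25.7% of all genes. After GDF15 1 fell (11.1%), near the 12.7% of all genes. The summed signal of these markers was 2818 to 3121 on the CCN2 arrays, 3835 to 4499 on the GDF15 arrays and 4220 to 4561 on the control arrays.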
